A study of Mus musculus and Acomys cahirinus with 2 samples.

Results

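The late cornified envelope (Lce) and small proline-rich (Sprr) genes of the mouse were described in a droplet-based single-cell RNA library of adult ear skin. Every gene whose symbol in the deposited gene list began with Lce or Sprr followed by a digit was taken, which gave 36 genes of the 28692 listed. Of these, 21 were Lce genes (14 Lce1, 6 Lce3 and Lce6a) and 15 were Sprr genes (Sprr1a and Sprr1b, 11 Sprr2 genes, Sprr3 and Sprr4). The series holds 1 library from Mus musculus and 1 from Acomys cahirinus, the spiny mouse, both of ear skin at day 0, and the values given here come from the Mus library. The series text calls the ears injured, while the sample title gives day 0. The labels name no treatment, strain or number of animals, and neither library has a replicate. The comparisons are therefore between cell classes within 1 library, and no test across animals was possible.

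Lce and Sprr proteins are building blocks of the cornified envelope, the cross-linked protein shell that replaces the plasma membrane of a keratinocyte as it becomes a corneocyte. Transglutaminases join them to involucrin, loricrin and other envelope proteins, and both families lie in the epidermal differentiation complex. Lce1 genes are known from the upper layers of normal epidermis, whereas Lce3 genes and several Sprr genes are known to be induced when the barrier is damaged or the skin is inflamed.

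In the GENCODE vM21 annotation of the mm10 build, the build that the submitters' processing notes name, all 36 genes lay on chromosome 3 between positions 92215799 and 93019060. The 11 Sprr2 genes came first, all on the forward strand (92215799 to 92433925), followed on the reverse strand by Sprr1b (92436809 to 92438789), Sprr3, Sprr1a (92483952 to 92485895) and Sprr4. Lce6a (92620081 to 92621660) was next. It was followed by 13 of the 14 Lce1 genes, from Lce1a1 (92646535 to 92648307) to Lce1l (92849949 to 92851286), and then by the 6 Lce3 genes (92925287 to 92993426). Lce1m (93017810 to 93019060) stood apart from the other Lce1 genes, at the far side of the Lce3 block. It was also the least like them in sequence. Its coding sequence of 546 bases matched its nearest member, Lce1i, over 57.9% of aligned positions, whereas each of the other Lce1 genes matched another Lce1 gene over 87.5% to 95.7%. The 6 Lce3 coding sequences, of 294 bases each, were 94.6% to 99.3% identical to one another. Sprr1a and Sprr1b, of 432 and 459 coding bases, were 78.4% identical.

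Promoter sequences were taken from RefSeq (GRCm38.p6), which held a window for 34 of the 36 genes. The last 120 bases before the annotated start are printed 5′ to 3′ for 7 genes that stand for the patterns described in the results: the most abundant Lce1 gene, Lce1m, one gene of each other Lce branch, both Sprr1 genes and Sprr2h. Capitals mark matches to 4 motifs searched on both strands: AP-1 (TGANTCA), the TATA box (TATAAA), a C/EBP-like word (TTNNGNAA) and the octamer (ATGCAAAT), which in Sprr2h is read on the opposite strand. The RefSeq starts of Sprr1a and Sprr1b lie a few bases inside the GENCODE genes.
Lce1a1, chr3:92648308-92648427, reverse strand: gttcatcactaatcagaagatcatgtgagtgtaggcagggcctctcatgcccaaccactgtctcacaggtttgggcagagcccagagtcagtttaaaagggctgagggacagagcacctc
Lce1m, chr3:93019062-93019181, reverse strand: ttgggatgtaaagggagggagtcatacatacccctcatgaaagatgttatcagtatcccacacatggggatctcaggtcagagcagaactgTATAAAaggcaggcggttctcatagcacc
Lce6a, chr3:92621661-92621780, reverse strand: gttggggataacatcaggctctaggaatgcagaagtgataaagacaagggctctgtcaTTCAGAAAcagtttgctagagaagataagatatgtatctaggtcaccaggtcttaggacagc
Lce3c, chr3:92944366-92944485, forward strand: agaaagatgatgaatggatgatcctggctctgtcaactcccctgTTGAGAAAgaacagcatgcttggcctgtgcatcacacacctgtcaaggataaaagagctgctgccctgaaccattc
Sprr1a, chr3:92485882-92486001, reverse strand: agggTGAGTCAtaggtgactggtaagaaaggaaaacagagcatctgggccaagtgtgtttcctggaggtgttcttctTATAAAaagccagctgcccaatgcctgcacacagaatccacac
Sprr1b, chr3:92438780-92438899, reverse strand: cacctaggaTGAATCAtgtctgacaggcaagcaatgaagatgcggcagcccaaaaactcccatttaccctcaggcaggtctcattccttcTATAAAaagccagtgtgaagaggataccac
Sprr2h, chr3:92385565-92385684, forward strand: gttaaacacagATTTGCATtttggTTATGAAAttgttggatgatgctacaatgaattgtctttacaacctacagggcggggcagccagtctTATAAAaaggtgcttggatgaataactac

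Over the full 250 bases before the start, the AP-1 word was found in 9 of 14 Sprr promoters and in 0 of 20 Lce promoters, against 6.75% of the 32851 promoters in the table. In both Sprr1 promoters it lay at a similar distance from the start, from base -116 in Sprr1a and from base -111 in Sprr1b, and Sprr1a had a further match before the printed window. The octamer was found in 7 of 10 Sprr2 promoters and in no other member, against 1.60% of all promoters. The TATA box was found in 10 of 14 Sprr and 4 of 20 Lce promoters, against 12.4% of all, and Lce1m was one of the 2 Lce1 genes that had it. The C/EBP-like word was found in all 6 Lce3 promoters, in 2 of 13 Lce1 promoters and in 9 of 10 Sprr2 promoters, against 36.8% of all. An ETS-like word (AGGAAG) was found in 7 of 13 Lce1 promoters, against 29.5% of all. The other words searched were GRHL (AACNNGTT), found in 0 of 34 member promoters and 3.64% of all, KLF-like (CCACCC), found in 1 of 20 Lce and 5 of 14 Sprr promoters and 28.1% of all, and NRF2-like (TGANNNNGC), found in 8 of 20 and 8 of 14 and 35.2% of all. The median identity of these 250 bases between members was 62.1% in Lce1, 56.1% in Lce3 and 59.2% in Sprr2. The highest in each family was 85.6%, 82.8% and 100%, and Sprr1a and Sprr1b were at 52.2%. These are matches of letters within related gene copies, some of which share sequence, and no binding was measured.

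The library held 130039670 unique molecular identifiers (UMIs, each counting 1 captured RNA molecule), of which 69.3% were in the 6556 cells kept. Clusters were built without the 36 genes and named from marker genes, so the class names stand for cells like the named type. The 2876 basal cells (median 10699 UMIs) came from 3 clusters in which 3 to 8 of 8 basal markers were raised. The 1381 early suprabasal cells (median 19144 UMIs) came from 3 clusters with 5 to 7 of 8 suprabasal markers, and the 164 late suprabasal cells (median 19620 UMIs) formed 1 cluster with 14 of 16 late markers. The 898 follicle cells (median 7465 UMIs) came from 4 clusters with 3 to 9 of 13 follicle markers, and the 89 sebaceous cells (median 14196 UMIs) formed 1 cluster with 10 of 12 markers. Of the remaining cells, 65 formed a cluster led by the stress keratins Krt6a and Krt16 with 9 of 12 cell cycle markers, 972 were other cycling cells, and 111 were fibroblast, endothelial or immune cells. These 111 non-epithelial cells were taken to lack Lce and Sprr expression and served as the background. Among them, 1 fibroblast held 6 of their 29 Sprr UMIs, all of Sprr2a3. The 2 libraries shared 31 cell barcodes, and random draws from the barcode list would give 42.6.

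Lce transcripts, summed over the 21 genes, were abundant in late suprabasal cells and sat at the background in the other 4 classes. The summed Lce level, in CPM (UMIs of a gene, multiplied up to the same total of 1000000 UMIs for each class), was 151.5 in basal, 146.4 in early suprabasal, 23358 in late suprabasal, 173.9 in follicle and 157.7 in sebaceous cells. In the non-epithelial cells it was 158.4 CPM, with an exact Poisson 95% interval of 133.4 to 186.7, and the basal, early suprabasal, follicle and sebaceous levels all fell inside that interval. Intervals given here cover counting error alone, not variation between cells or animals. Follicle cells stood 1.15-fold above basal cells (exact conditional binomial 95% interval 1.08 to 1.22). Early suprabasal cells did not differ from basal cells in the Lce sum beyond counting error (ratio 0.966, 95% interval 0.926 to 1.007), although their Krt10, the keratin of the spinous layer, was at 40684 CPM against 4232 CPM in basal cells. The share of cells with a UMI showed the same background. Lce1a1 was found in 19.0% of basal cells and 30.1% of early suprabasal cells, but also in 22.5% of the non-epithelial cells, which had a median of 5848 UMIs. When each cell was thinned to 4695 UMIs, a UMI of any Lce gene was found in 50.6% of basal, 50.4% of early suprabasal, 71.3% of late suprabasal, 52.4% of follicle, 52.8% of sebaceous and 46.8% of non-epithelial cells. In barcodes with too few UMIs to be kept as cells, the Lce sum was 1639 CPM at 1 to 10 UMIs, 646.9 at 11 to 99, 1216 at 100 to below 500 and 936.8 at 500 to below 1000. The source of the RNA in these barcodes was not tested.

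**Figure D1:**
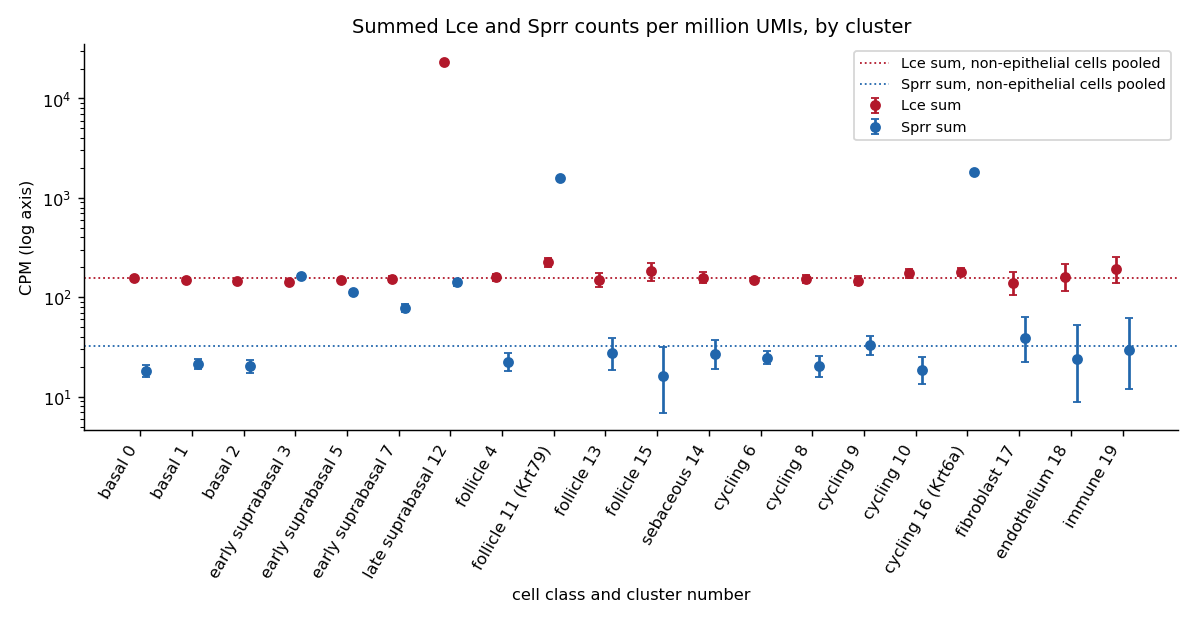
Summed Lce (red) and Sprr (blue) levels in CPM on a log axis, for each of 20 cell clusters ordered by class. Bars are exact Poisson 95% intervals for counting error, and dotted lines give the levels in the 111 non-epithelial cells pooled. The Lce sum is far above its line in the late suprabasal cluster (23358 CPM). Its interval also lies above the line in the Krt79 cluster (226.6 CPM) and the Krt6a cluster (181.6 CPM), and below it in some basal and early suprabasal clusters. The Sprr sum is highest in the Krt79 cluster (1576 CPM) and the Krt6a cluster (1812 CPM).

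Of the 36 genes, 23 had at least 30 UMIs over the 5 classes, 18 Lce and 5 Sprr genes. All 18 Lce genes were highest in late suprabasal cells. The 5 Sprr genes did not share a class: Sprr2d and Sprr2h were highest in late suprabasal, Sprr1b in early suprabasal, Sprr1a in follicle and Sprr2a3 in basal cells. The order was not separated by counting error for Sprr1b, at 91.9 CPM in early (95% interval 88.3 to 95.6) and 85.2 CPM in late suprabasal cells (75.8 to 95.5). The same held for Sprr2a3, at 1.018 CPM in basal (0.701 to 1.43) and 0.877 CPM in early suprabasal cells (0.562 to 1.31). The other 13 genes had fewer UMIs. Of these, Sprr3, Lce3a and Lce3b had 0 UMIs in all 6556 cells, which leaves levels under the floor of 3 UMIs possible. The Lce3a and Lce3b proteins were 98.98% and 95.9% identical to those of Lce3d and Lce3c, which were detected. Between late and early suprabasal cells, 20 of the 22 members with at least 30 UMIs in the pair were at least 2-fold higher in late cells and 1, Sprr1a, was at least 2-fold lower. Sprr1a fell short of 2-fold, at a log2 ratio of -0.81 to -0.98, under 5 alternatives. Among all 10626 genes with that many UMIs the share at least 2-fold higher was 10.4%. The median log2 ratio was 7.22 over the members and -0.41 over all genes. Against basal cells, 22 of 23 members were at least 2-fold higher in late cells, where the share over all genes was 13.2%. In late cells the most abundant members were Lce1a1 (2854 CPM), Lce1a2 (2345), Lce1l (2339) and Lce1b (2095), and Lce1m (2067) was the fifth. In early suprabasal cells the same 5 genes stood at 18.5, 15.9, 14.0, 13.2 and 11.04 CPM, and in non-epithelial cells at 30.1, 13.4, 13.4, 16.7 and 11.2 CPM. Over all 14 Lce1 genes the range was 296.7 to 2854 CPM in late, 1.94 to 18.5 in early suprabasal, 2.04 to 19.1 in basal, 2.86 to 19.7 in follicle and 4.15 to 18.7 CPM in sebaceous cells. Because the early suprabasal Lce1 levels were at the background, ratios of late over early cells for these genes are ratios over background.

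The late suprabasal Lce levels rested on few cells. In 11 of the 164 late cells, Lce genes made up at least 1% of all UMIs, and these 11 cells held 98.7% of the Lce UMIs of the class and 84.8% of those in all 6556 cells. In order of their Lce share, the 11 cells had 54.4%, 50.8%, 42.5%, 41.2%, 34.4%, 34.0%, 13.9%, 6.93%, 6.58%, 1.49% and 1.25% of their UMIs from Lce genes. The cell with the most had 30249 Lce UMIs of 55609, which was 37.4% of the class total. Without that cell the class stood at 14857 CPM, and other filters, clusterings and scalings, most of which changed which cells were in the class, gave from 14701 to 54415 CPM. The highest value came without doublet removal, and a minimum of 1000 UMIs put 237 cells in the class. The median late cell had 5 Lce UMIs. The other 153 late cells had an Lce sum of 338.7 CPM (95% interval 318.8 to 359.6), above the non-epithelial background and far below the class value. That sum was not evenly spread: 5 of these cells, at 0.1% to 1% Lce, had 19 to 97 Lce UMIs each. It also includes Lce6a, which had 0 UMIs in the non-epithelial cells.

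The 11 cells were not a separate cluster, and their number depends on where the line is drawn: 11 more cells lay between 0.1% and 1%, of which 5 were late suprabasal and the highest, at 0.97%, was a follicle cell. None of the other 6534 cells reached 0.1%. The 11 cells had a median of 24141 UMIs and 2298 genes, against 19620 UMIs and 3057 genes for the late class. In each of them loricrin (Lor), a major envelope protein of mouse epidermis, made up 6.97% to 19.3% of UMIs, while Ivl, an envelope scaffold protein, was at 0 in 8 of the 11. All 11 were among the 21 late cells with the highest late minus early marker score, which used none of the 36 genes.

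The make-up of the Lce1 counts differed between these cells. In the 6 cells with over 30% Lce, 13 or 14 of the 14 Lce1 genes were detected and no gene exceeded 15.7% of the Lce1 UMIs. In the cell with 13.9% Lce, Lce1a1 was 21.9% of Lce1 UMIs. In the 2 cells with 6.93% and 6.58% Lce, Lce1a1 was 37.8% and 40.4%, Lce1f was 14.0% and 12.7%, while the neighbouring genes Lce1g and Lce1h had 0 UMIs, Lce1j 0 and 1, and Lce1i 8 and 11, of 873 and 1128 Lce1 UMIs. In the 2 cells with the lowest Lce shares, Lce1m was 68.8% and 97.5% of Lce1 UMIs (401 of 583 and 275 of 282). A late cell just under the line, at 0.34% Lce, also had mostly Lce1m, with 60 of its 93 Lce1 UMIs. Another late cell, at 0.78% Lce, had 19 of 68, and a follicle cell at 0.97% had 7 of 73. Among the 9 cells with over 5% Lce, Lce1m stayed at 12.3% or less. In 1 of the 9, with 4473 Lce1 UMIs, Lce1m had 0 UMIs, where the other cells with over 30% Lce had 182 to 2437. The lines of 1%, 5% and 30% were drawn after the values were seen.

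**Figure D2:**
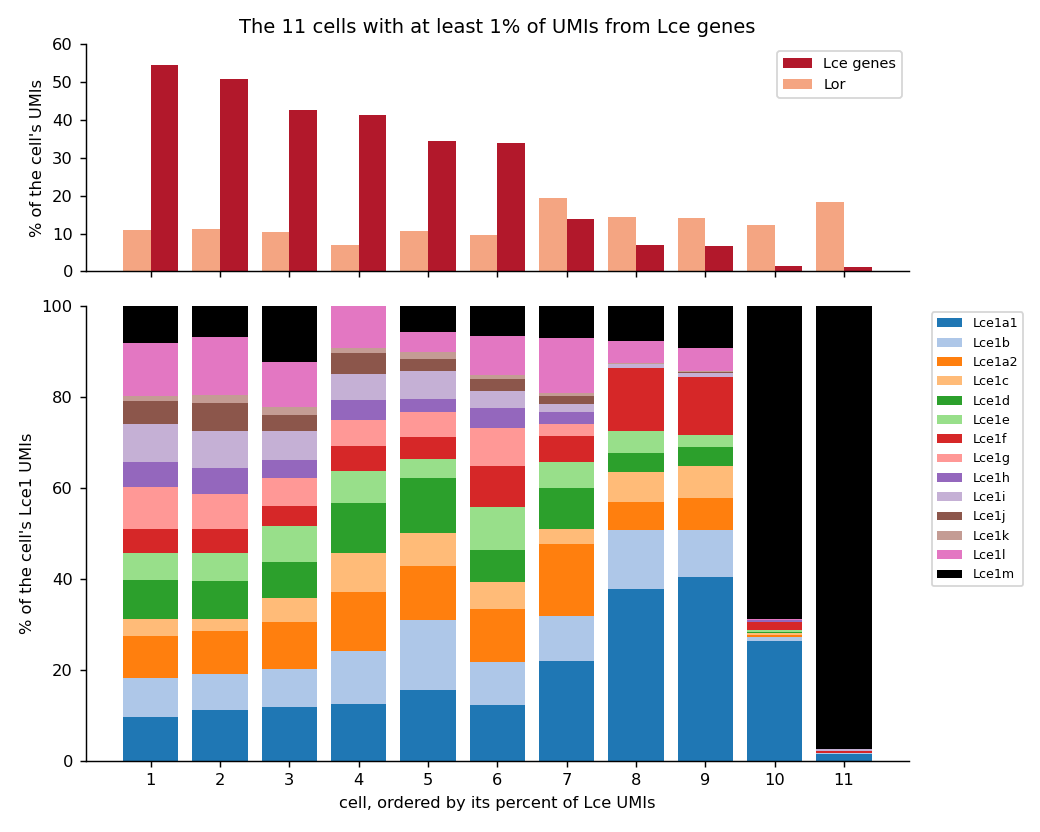
Upper plot: percent of each cell's UMIs from Lce genes and from Lor in the 11 cells with at least 1% Lce. Lower plot: share of each Lce1 gene among the cell's Lce1 UMIs, with Lce1m in black. Lce1m takes 68.8% and 97.5% in the 2 cells with the least Lce and 0% in cell 4.

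Outside these cells the Lce1 genes stood in nearly the same proportions as in the 11 cells summed. Lce1a1 was 12.4% of Lce1 UMIs in the 11 cells and 13.3% in the remaining cells of the library, Lce1m was 8.92% and 8.72%, and Lce1k, the rarest, was 1.29% and 1.47%.

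Ordering the 164 late cells by the late minus early marker score, in 4 bins of 41 cells, placed the Lce genes at the far end. The Lce1 sum was 152.5 CPM in the first bin, 175.1 in the second, 228.3 in the third and 84414 in the last. Lor moved over a wider part of the range, with 478 CPM in the first bin, 2081 in the second, 22952 in the third and 92473 in the last. Hrnr (hornerin, a filaggrin-related protein) was at 638, 1324, 3365 and 4212 CPM. Ivl went the other way, at 766, 918, 524 and 60.8 CPM, as did Krt10, at 72325, 67344, 33565 and 4293 CPM. Lor was thus high in the third bin as well as the last, the Lce1 sum in the last alone of these 4. Lor and Hrnr are late markers and Krt10 an early one in the score, so their order is set by it, whereas Ivl and the Lce genes were not used. Because the values are shares of a total, a cell with over 30% Lce has lower CPM for every other gene. Over the whole suprabasal range in 10 bins, the Lce sum stayed between 135.3 and 161.0 CPM in the first 9 bins and was 24946 CPM in the last. Without bin 4, 3 members instead of 20 were at least 2-fold higher in late than early suprabasal cells, and the Lce sum of the class was 245.7 CPM.

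**Figure D3:**
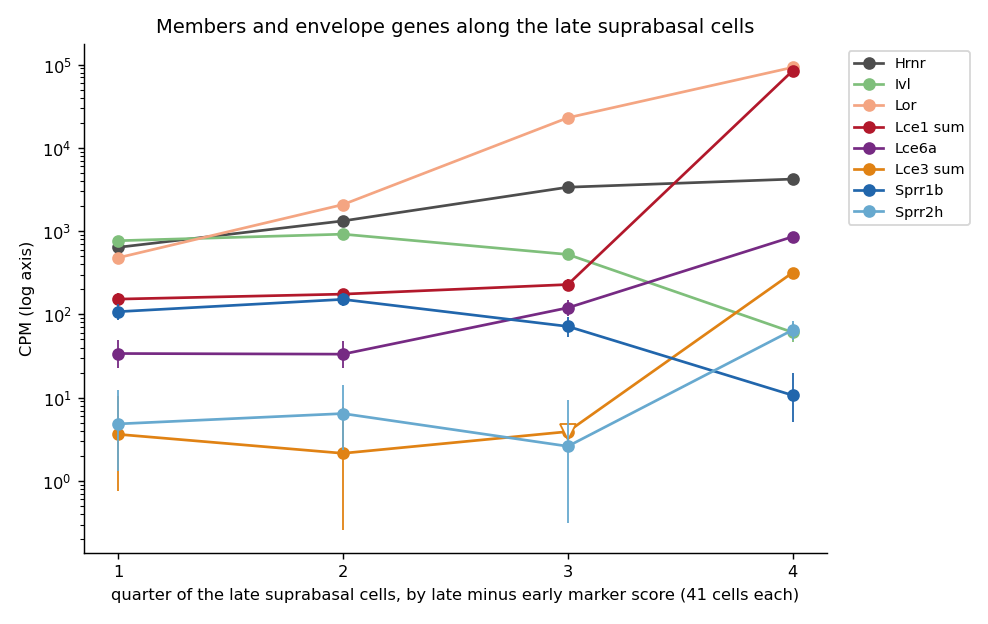
Levels in CPM on a log axis in 4 bins of 41 late suprabasal cells, ordered by the late minus early marker score. Bars are exact Poisson 95% intervals and the open triangle is the level of 3 UMIs where none was counted. The Lce1 sum goes from 228.3 to 84414 CPM from bin 3 to bin 4, while Sprr1b goes from 71.7 to 10.7 CPM.

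Lce6a, the only gene of its branch, was raised over more of the late cells than the Lce1 genes. Its level was 2.44 CPM in basal, 4.09 in early suprabasal, 275.7 in late suprabasal, 4.35 in follicle and 2.07 in sebaceous cells, with 0 UMIs in the non-epithelial cells. It was 67.3-fold higher in late than early suprabasal cells (95% interval 55.3 to 82.6). Of its 954 UMIs in late cells, 212 came from 1 cell, and the 10% of late cells with the most held 74.1%. A UMI of Lce6a was found in 59.8% of late cells against 7.02% of early suprabasal cells. Of the 3 early suprabasal clusters, the one led by Tesc and Krt78 had the most Lce6a, at 10.3 CPM (95% interval 7.70 to 13.5), in 16.7% of its cells. That level was above the non-epithelial upper limit of 4.11 CPM, whereas the other 2 clusters were at 2.35 and 3.14 CPM. Along the late cells Lce6a was at 33.9, 33.3, 120 and 857 CPM, so that in the first 3 bins it was above its early suprabasal level. Without bin 4 its log2 ratio of late over early suprabasal cells was still 3.87, whereas Lce1a1, at 7.27 with all cells, stood at 0.37. The 3 genes that kept at least a 2-fold ratio without bin 4 were Lce6a, Sprr2d (log2 ratio 3.13) and Sprr2h (1.05).

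The Lce3 genes were rare in cells. Lce3c was the most abundant, at 74.8 CPM in late suprabasal cells against 1.24 in early suprabasal and 1.45 in basal cells (60.2-fold over early, 95% interval 42.0 to 88.8). Lce3e was at 8.38 CPM in late cells against 0.146 in early suprabasal cells, but 27 of its 29 UMIs there came from 1 cell, and Lce3d was at 3.18 against 0.695 CPM. Of the 259 Lce3c UMIs in late cells, 118 came from 1 cell and 148 of the 164 cells had none. In the 11 cells with at least 1% Lce the Lce3 genes together gave 0 to 121 UMIs, and the cell with the largest Lce share had 5. Lce3f had 6 UMIs in all cells. Cells of the Krt6a cluster had an Lce3 sum of 10.4 CPM, 3.89-fold above basal cells (95% interval 2.41 to 6.09) on 26 UMIs, of which 17 came from 1 cell that had 0 Lce1 UMIs.

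The 2 Sprr1 genes, whose proteins are transglutaminase substrates joined early into the envelope, had their highest levels in different clusters. Sprr1a was highest in a follicle cluster of 180 cells led by Krt79, a keratin of the upper hair follicle and the sebaceous duct. Its level there was 1559 CPM, against 7.65 in basal, 33.5 in early suprabasal, 15.3 in late suprabasal and 16.6 in sebaceous cells. Sprr1b in the same cluster was at 6.96 CPM, against 12.3 CPM in non-epithelial cells, so that Sprr1a gave 99.6% of the Sprr1 UMIs (95% interval, exact Clopper-Pearson, 99.2 to 99.8). Sprr1b was highest in the Krt6a cluster, at 1426 CPM, where Sprr1a stood at 319.7 CPM and gave 18.3% of Sprr1 UMIs. Early suprabasal cells also had more Sprr1b (91.9 CPM) than Sprr1a, and late suprabasal cells had 85.2 CPM of Sprr1b. The log2 ratio of Sprr1b in late over early cells was -0.11, and -3.45 without doublet removal. That setting was clustered anew, so the cells of the late class also changed. The part of doublets in the difference was not tested. In basal cells, with 9.44 CPM of Sprr1b and 44.8% of Sprr1 UMIs from Sprr1a, both genes were below the non-epithelial level of 12.3 CPM, which rests on 11 UMIs for each.

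**Figure D4:**
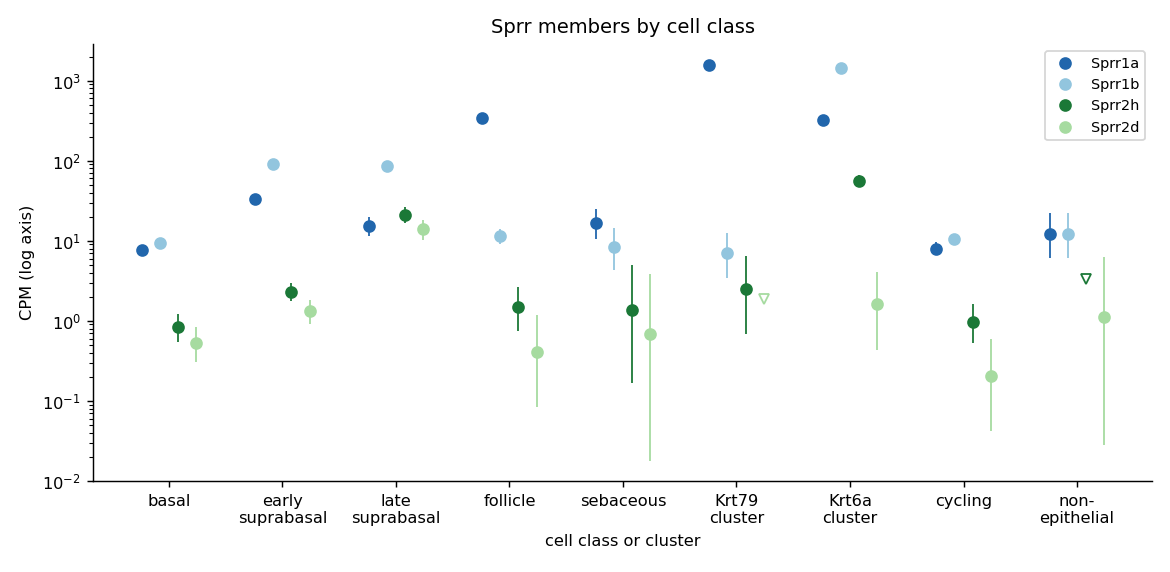
Levels of 4 Sprr genes in CPM on a log axis, in the 5 classes, the Krt79 and Krt6a clusters, the other cycling cells and the non-epithelial cells. Bars are exact Poisson 95% intervals and open triangles mark the level of 3 UMIs where none was counted. Sprr1a peaks in the Krt79 cluster (1559 CPM), and Sprr1b and Sprr2h in the Krt6a cluster (1426 and 55.8 CPM).

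How often a cell carried both Sprr1 genes differed between clusters, which also differed in depth and in how many cells had each gene. In the Krt79 cluster 93 of 180 cells had a Sprr1a UMI and 11 a Sprr1b UMI, and 5 had both. In the Krt6a cluster 28 of 65 cells had Sprr1a and 46 had Sprr1b, and 21 had both, which is 75% of the first set and 45.7% of the second. In early suprabasal cells 352 of 1381 had Sprr1a and 392 had Sprr1b, and 151 had both, which is 42.9% and 38.5%. For comparison, Sprr1b was found in 70.8% of all Krt6a cluster cells, near the 75% among those with Sprr1a. In the Krt79 cluster it was in 6.11% of all cells and 5.38% of those with Sprr1a. In early suprabasal cells it was in 28.4% of all and 42.9% of those with Sprr1a. These counts were not thinned, at medians of 39425, 8099.5 and 19144 UMIs per cell. In the non-epithelial cells, which are shallower, 10 of 111 had Sprr1a, 11 had Sprr1b and 1 had both. Cells in which a Sprr1 gene took a large share of UMIs were fewer. Sprr1a made up at least 0.1% of UMIs in 55 cells of the library, of which 48 were in the Krt79 cluster, 4 in the Krt6a cluster and 3 were early suprabasal. Sprr1b reached 0.1% in 43 cells, of which 27 were early suprabasal, 12 were in the Krt6a cluster and 4 were late suprabasal. Both genes reached it in 4 cells, which is 7.27% of the first set and 9.30% of the second, and 3 of the 4 were in the Krt6a cluster. Within the Krt79 cluster, Sprr1a was uneven: the median cell had 1 UMI, 87 of 180 had none and the highest had 337. Its rank correlation across these 180 cells was 0.67 with Cst6 (cystatin M/E, an inhibitor of cathepsins that act on transglutaminases), 0.60 with Krt17 and 0.38 with Krt79. These are descriptions across cells of 1 library that share depth and free RNA. At a finer clustering resolution of 2 the cluster split, and the part highest in Krt79 had 2760 CPM of Sprr1a. The other 3 follicle clusters had Sprr sums of 22.4, 27.4 and 16.05 CPM, which did not exceed the interval of the non-epithelial level (21.7 to 46.4 CPM).

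The Krt6a cluster had a median of 39425 UMIs per cell, the highest of all clusters, and 2 of 4 neutrophil markers, S100a8 and S100a9, which stressed keratinocytes also make, were raised in it. The part of depth and of doublets in its Sprr level was not tested beyond the doublet scores. Its Sprr1b was also uneven, with a median of 3 UMIs, 19 of 65 cells without any and 878 UMIs in the highest cell. Without that cell the level was 1101 CPM, and at the lower resolution of 0.5 it was 735.2 CPM. Sprr1b had a rank correlation across the 65 cells of 0.73 with Krt16, 0.64 with Krt6a and 0.63 with Sprr2h. In early suprabasal cells, 989 of 1381 had no Sprr1b UMI, while the highest had 109, and the 27 cells at or above 0.1% held 49.9% of its UMIs. The 3 early suprabasal clusters had Sprr sums of 165.2, 112.8 and 78.5 CPM, the last in the cluster led by Tesc and Krt78.

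Between early suprabasal and basal cells, 4 of 22 members were at least 2-fold higher in early cells, against 6.75% of all genes. All 4 were Sprr genes: Sprr1b was 9.74-fold higher (95% interval 8.64 to 10.998), Sprr1a 4.38-fold (3.80 to 5.06), Sprr2h 2.76-fold (1.74 to 4.52) and Sprr2d 2.51-fold (1.37 to 4.76). Of the 36 Sprr2d UMIs in early cells, 26 came from 1 cell, as did 19 of the 63 Sprr2h UMIs. The early Sprr2 sum of 5.48 CPM was inside the non-epithelial interval of 3.14 to 16.1 CPM. That interval rests on 7 UMIs, of which 6 were Sprr2a3 in 1 fibroblast. The Sprr2h and Sprr2d ratios are therefore between levels not separated from the background. None of the 17 Lce genes measured in this pair reached 2-fold, and the highest was Lce6a, at 1.68-fold (1.25 to 2.27). At resolution 2, with another seed, or with other envelope genes left out of the clustering the count was 2 in place of 4, and the log2 ratio of the Sprr2 sum went from 0.97 to -0.16, 0.02 and 0.09. Counting the cycling clusters in the class of their markers brought the Krt6a cluster into the basal class, and 1 member then passed instead of 4. The direction of the Sprr1 sum between late suprabasal and basal cells then also turned, from a log2 ratio of 2.56 to -0.11.

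The Sprr2 genes, which encode short proline-rich envelope proteins that are known to rise in stressed epithelia, were low. Sprr2h was at 21.1 CPM in late suprabasal cells against 2.30 in early suprabasal and 0.833 in basal cells, and at 55.8 CPM in the Krt6a cluster. It was 9.16-fold higher in late than early cells (95% interval 6.45 to 13.0), but 28 of its 73 UMIs in late cells came from 1 cell and 145 of 164 cells had none. Sprr2d was at 13.9 CPM in late cells against 1.32 in early suprabasal cells (10.5-fold, 6.70 to 16.7), with at most 7 UMIs in a cell. Sprr2e was at 4.62 CPM in late cells, on 16 UMIs. Sprr2d and Sprr2e were at 1.61 and 0 CPM in the Krt6a cluster, where Sprr2h was at 55.8 CPM. Sprr2a3 had 33 UMIs in basal cells, 53 in cycling cells other than the Krt6a cluster and 0 in late suprabasal cells, and 6 UMIs in 1 fibroblast. Sprr2a1 and Sprr2a2, whose coding sequences were identical, had 12 and 8 UMIs in all cells, Sprr2b 23, Sprr2f 16, Sprr2i 3, Sprr2k 2 and Sprr2j-ps 2. Sprr4 had 14 UMIs, of which 11 were in the Krt79 cluster and 7 in 1 of its cells.

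The follicle Sprr sum was 356.7 CPM against 19.9 CPM in basal cells, and Sprr1a in the Krt79 cluster gave most of it (2464 of 2623 UMIs). The sebaceous Sprr sum was 26.97 CPM, inside the non-epithelial interval. In follicle cells, 2 of 21 members were at least 2-fold higher than in basal cells, against 10.5% of all genes: Sprr1a (44.6-fold, 95% interval 39.2 to 51.1) and Lce3c (2.16-fold, 1.25 to 3.62, on 23 UMIs). The Krt79 cluster taken alone had 6 of 21 members at least 2-fold above basal cells, against 10.5% of all genes. Sprr1a was 203.8-fold higher there, and the other 5 (Lce6a, Sprr2h, Lce1i, Lce1k and Lce3c) had 4 to 33 UMIs each. Of the 33 Lce1i UMIs, 14 came from 1 cell. The Lce sum in that cluster was 226.6 CPM, above the non-epithelial interval, but 74 of its 358 UMIs came from 1 cell, and without it the sum was 180.6 CPM (160.2 to 202.9). In sebaceous cells, 2 of 20 members passed, against 14% of all genes: Sprr1a (2.17-fold, 1.36 to 3.30, on 24 UMIs of which 13 came from 1 cell) and Lce1k (2.04-fold, 0.722 to 4.68, on 6 UMIs). In the Krt6a cluster, 6 of 21 members were at least 2-fold above basal cells, against 11% of all genes, and they were all 4 Sprr genes measured there (Sprr1a, Sprr1b, Sprr2a3 and Sprr2h) with Lce3c and Lce3d.

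Genes outside the families were ranked by how their log2 CPM across the 20 clusters correlated with each family sum. The Lce sum stood far above the background in the late suprabasal cluster alone, so its values rest on that 1 cluster, and any gene high there alone ranks near the top. The first 8 were Lor (Pearson r = 0.994), Wfdc21 (0.971), Smpd3 (0.955), Nccrp1 (0.946), 2210017I01Rik (0.941), 2010109I03Rik (0.938), Lrrc28 (0.937) and Krtap3-2 (0.933). For the Sprr sum, which was highest in 2 clusters and raised in the early and late suprabasal ones, they were Krt16 (0.824), Teddm3 (0.824), Pinlyp (0.809), Klk6 (0.772), Nkpd1 (0.768), Klk10 (0.762), 4833423E24Rik (0.751) and Lypd3 (0.749). The clusters share 1 library and its free RNA, and these values are descriptions.

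A list of 37 other genes of cornification held envelope proteins, transglutaminases, keratins, proteases and lipid enzymes. Some were themselves class markers, such as Lor, Flg2 and Krt10, so that their place among the classes was set by the naming. Of the 20 that were not, 14 were measured in late and early suprabasal cells, of which 10 were at least 2-fold higher in late cells and 0 were lower, against 10.4% of all genes higher. From basal to early suprabasal cells, 11 of 15 were at least 2-fold higher and 1 was lower, against 6.75% of all genes higher, where 0 of 17 Lce genes were. The most abundant gene of the list in late cells that was no marker was the keratin Krt2 (22565 CPM), which was at 22636 CPM in early suprabasal cells. Of 39 regulators of keratinocyte differentiation, 38 were measured, of which 9 were higher in late than early cells and 10 lower, against 10.4% and 27.3% of all genes. The most abundant regulators in late cells were Klf4 (786.8 CPM), Rora, Hopx and Junb. Of 22 stress and wound genes that were no class markers, 15 were measured, of which 6 were higher and 2 lower in late than early cells. The clusters were built with these genes, so the counts are descriptions.

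The Acomys gene list had a symbol for 3 of the 36 members among its 24509 genes. They were Lce1m, Lce6a and Sprr1a, and the other 33 had none, which says nothing of whether the genes exist in that genome. In the Mus library these 3 were the Lce1 gene that led in 3 cells with 0.34% to 1.49% Lce, the Lce gene detected in the most late cells and the Sprr gene of the Krt79 cluster.

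Near-identical copies limit what can be said of single genes. Of all 50-base words in the last 300 bases of each gene's longest transcript, where 3′ reads fall, every word was found in no other gene for 18 of the 36 members, Lce1m, Lce6a, Sprr1a, Sprr1b, Sprr2d and Sprr2h among them. The share was 67.3% for Lce1b, 83.7% for Lce1a1, 78.5% for Lce3c, 57.8% for Lce3d, 19.9% for Sprr2a3 and 0% for Sprr2a1 and Sprr2a2. How the counting treated reads that match several copies is not stated in the labels, so the levels of Sprr2a1, Sprr2a2 and Sprr2a3 are uncertain, and the shares among Lce1 genes may be shifted.

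Some members lay mostly outside the cells. Barcodes of 100 to below 500 UMIs, of which there were 75369, held 15.8% of all UMIs of the library. They held 18.9% of the Lce1 UMIs and 21.5% of the Sprr1 UMIs, but 68.3% of the 618 UMIs of Lce3d and 49.5% of the 1058 of Lce3c. The Lce3 sum was 49.9 CPM in these barcodes and 6.02 CPM over all cells, and the Sprr2 sum was 33.9 and 7.34 CPM. The Lce3d UMIs were spread over 417 barcodes, with at most 2 in any of them.

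**Figure D5:**
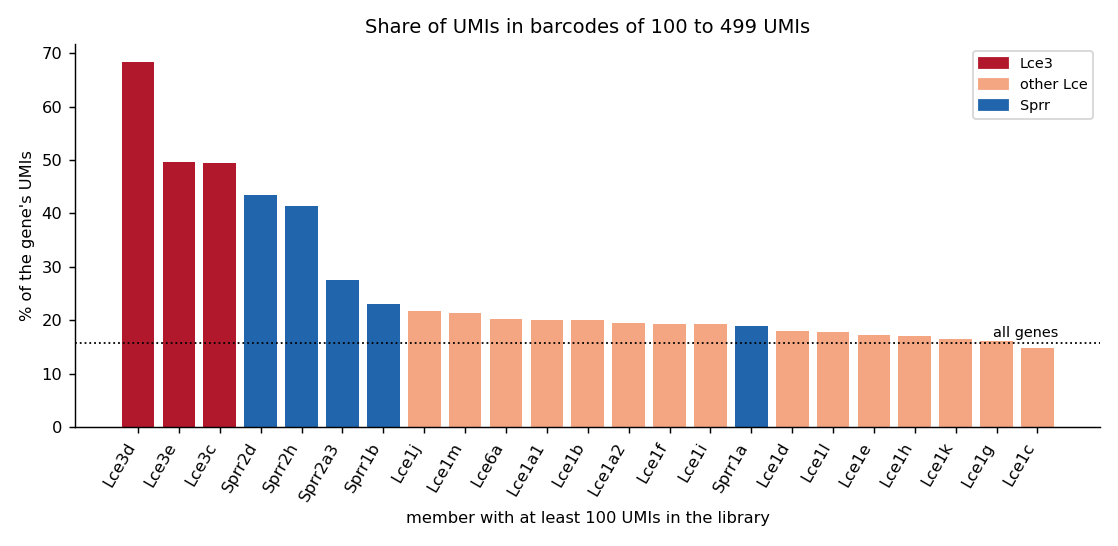
Share of each gene's UMIs in barcodes of 100 to below 500 UMIs, for the 23 members with at least 100 UMIs in the library. The dotted line is the share over all genes (15.8%). The Lce3 genes and Sprr2d and Sprr2h lie between 41.4% and 68.3%, Sprr2a3 at 27.5%, and the Lce1, Lce6a and Sprr1 genes between 14.8% and 23.1%.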

How the data were processed

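Single cells of adult ear skin were captured on the Chromium 10X platform and the 3′ ends of their cDNA were sequenced, per the labels' protocols. The authors deposited raw UMI counts per gene and barcode for all 737280 barcodes, made with Cell Ranger 2.2.0 and mm10 per the submitters' processing notes; how that counting treated shared reads is not stated in the labels. No step before these counts was repeated.

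Cells were barcodes with at least 4695 UMIs (10% of the 99th percentile of the 3000 largest), at least 200 genes and at most 20% mitochondrial UMIs, which removed 4. Another 386 barcodes with the highest simulated-doublet scores, at a rate of 0.8% per 1000 cells, were left out. Counts were scaled to 10000 per cell, and 2000 variable genes without any member, 30 components, 20 neighbours and Leiden resolution 1 with seed 1 gave 20 clusters (scanpy 1.11.5, leidenalg 0.10.2, python 3.11.15). A marker counted where at least 20% of cells had it and its mean was at least 1.5 times that of the other clusters. A class needed 3 markers, the late class 8 late markers, and a cycling cluster 4 cell cycle markers. This scoring rule was chosen after the data were seen. Class levels are summed counts over summed UMIs. Intervals are exact at the 95% level (scipy 1.17.1) and cover counting error alone. A ratio was called at 2-fold among genes with at least 30 UMIs in the pair, and the floor for a count of 0 was 3 UMIs.

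There was 1 library per species, so no test was made. Named genes were up to 4 per family with the most UMIs, members highest outside their family's usual class, undetected near-identical members, and the 8 genes outside the rule most correlated with each family sum. The members and lists were chosen with earlier results of these data known. Calls and intervals were checked on simulated Poisson counts of class totals. Such counts hold no extra spread between cells, so the check cannot cover levels that rest on few cells. The 16 alternatives set at the outset covered cell filters, clustering, free RNA, scaling and thresholds, and 2 more were added after the data were seen. From the Acomys library only gene symbols and barcode totals were used.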

Additional observations from a re-analysis of the deposited data

Results flagged for a closer look

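Some members had a larger share of their UMIs in barcodes of 100 to below 500 UMIs than the data as a whole. These barcodes are outside the cells compared in the report and held 15.8% of all UMIs. Of the 23 members with at least 100 UMIs in the library, 5 had more than 2 times that share there. Lce3d had 68.3% of its UMIs there, Lce3e 49.6%, Lce3c 49.5%, Sprr2d 43.5% and Sprr2h 41.4%. The level of Lce3d was 20.5 CPM in these barcodes and 0.999 CPM in cells, and that of Lce3c was 25.4 and 4.43 CPM. The UMIs were spread thinly, with at most 5 UMIs of any of the 5 genes in a barcode. The 3 members with 0 UMIs in cells had 4 (Lce3a), 6 (Lce3b) and 1 (Sprr3) in the whole library.

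Lce-rich barcodes also lay below the cell minimum. At least 1% of UMIs came from Lce genes in 8 of the 6186 barcodes of 500 to below 1000 UMIs and in 2 of the 2797 barcodes from 1000 UMIs up to the minimum, against 11 of the 6946 at or above it. The source of the RNA in these barcodes was not tested.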

How the results depend on the processing

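Over 52 log2 ratios followed through 15 alternatives, 675 values were counted as unchanged, 27 lost the call and 16 gained one. Another 4, at least 2-fold in the main setting, turned sign. A ratio under 2-fold that turned sign was counted as unchanged, as for the Sprr2 sum of early over basal cells at resolution 2. Not every ratio had a value in every alternative. With 10% free RNA subtracted, 31 were unchanged and 3 gained a call, and the rest of the 52 had no value. All members-by-class counts for late cells stayed within 1.5 times of 20 (over early) and 22 (over basal) except without the 41 late cells of highest marker score, which left 3 and 5. That setting also gave log2 ratios of -0.10 and -0.44 for the Lce3 sum over early and basal cells and -0.064 for Lce3c over early cells. With cycling clusters placed by their other markers, the Sprr1 sum of late over basal cells was -0.11. Without doublet removal, Sprr1b in late over early cells was -3.45.

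The early-over-basal count of 4 was 2 at resolution 2, with envelope genes left out, with seed 2, with at least 100 UMIs and at a fold of 4, was 10 with at least 1 UMI, and was 1 with cycling clusters placed. The follicle count of 2 was 4 with at least 1 UMI and 1 with at least 100 UMIs, a fold of 4 or cycling clusters placed. The sebaceous count of 2 was 1 with a mitochondrial limit of 10%, resolution 0.5, 15 components, members kept or at least 100 UMIs. It was 0 with a minimum of 1000 UMIs, no doublet removal, resolution 2, no ribosomal or mitochondrial genes, 10% free RNA subtracted, a fold of 4 or cycling clusters placed.

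The Lce sum in late cells, 23358 CPM, was 21369 with a minimum of 1000 UMIs, 14711 with the mitochondrial limit, 54415 without doublet removal, 14713 at resolution 0.5 or with members kept, 14701 at resolution 2, with 15 components or with seed 2, and 20650 with envelope genes left out. It was 29295 without ribosomal and mitochondrial genes, 25746 with free RNA subtracted, 17879 as a mean over cells, 14857 without its highest cell and 245.7 without the highest-scoring late cells. Sprr1a in the Krt79 cluster, 1559 CPM, was 1725 with the lower minimum, 1114 without doublet removal, 2760 at resolution 2, 1290 with 15 components, 2123 without ribosomal and mitochondrial genes, 1723 with free RNA subtracted, 1360 as a mean and 1356 without its highest cell. Sprr1b in the Krt6a cluster, 1426 CPM, was 1232 with the lower minimum, 760.4 with the mitochondrial limit, 735.2 at resolution 0.5, 1154 with 15 components, 738.6 with members kept, 2042 without ribosomal and mitochondrial genes, 1572 with free RNA subtracted, 1097 as a mean and 1101 without its highest cell. The causes were not tested. The number of cells with at least 1% Lce was 11, or 13 with the lower minimum. No paired analysis was possible because there is 1 library per species. The late Lce values are limited by the 11 cells that hold 98.7% of the UMIs, and Lce3 genes other than Lce3c and Sprr2 genes other than Sprr2a3, Sprr2d and Sprr2h had 90 UMIs or fewer in all cells.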
